A study of Arabidopsis thaliana with 24 samples.

Results

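Shoots of mock-sprayed Arabidopsis thaliana were compared between 6 d and 48 h after the spray, so that the comparison follows untreated plants over 4 more days with no elicitor involved. The 3 arrays of the 6 d mock group and the 3 arrays of the 48 h mock group were chosen by their sample titles, and they are 6 of the 24 arrays of the series. The study measured transcripts of whole aerial tissue on Affymetrix ATH1 arrays to compare the defence responses triggered by DCA (3,5-dichloroanthranilic acid) and INA (2,6-dichloroisonicotinic acid), both synthetic elicitors. Each of its 8 groups has 3 biological replicates, per the labels. All plants grew on soil at 21 °C, with days of 14 h and nights of 10 h, and were sprayed at the age of 2 weeks.

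The 6 d mock plants and the 48 h mock plants were wild-type Col-0, sprayed with 0.002% DMSO in water and differing only in the time of harvest, as far as the labels say. For comparison, 4 further Col-0 groups were used, sprayed with 100 µM DCA or 100 µM INA and harvested at 6 d or 48 h. The remaining groups were the mutant npr1-3, which lacks a working NPR1 coactivator of salicylic acid (SA) responses, 48 h after DCA or mock. These groups were not contrasted with others. They entered the estimate of the spread between replicates, the filter on low signal and the correlations of replicate differences. Plants at 6 d were both older and harvested on another day, so age and the state of the plants at harvest cannot be told apart. The hour of harvest and the number of plants per sample are not given in the sources used here.

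Leaves of a young rosette shift their transcripts with age, with the hour of the day and with their supply of sugar. Chaperones of the heat shock families keep other proteins folded, and the co-chaperone SGT1 works with HSP90 to stabilise NLR (nucleotide-binding leucine-rich repeat) receptors, which sense pathogen effectors inside the cell. Jasmonates and SA are the main defence hormones of the leaf, and enzymes that break them down set how long a response lasts.

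All arrays had been scaled to a trimmed mean signal of 500.1. The median signals of the 6 d mock arrays were 139.8, 137.3 and 137.4, against 121.9, 126.3 and 125.1 in the 48 h mock arrays. The array of replicate 1 stood apart at 48 h: replicate 1 and replicate 2 of the 48 h mock group differed by more than 2-fold in 19.0% of the tested probe sets, replicates 1 and 3 in 7.87% and replicates 2 and 3 in 4.98%. Within the 6 d mock group the same shares were 1.41%, 3.20% and 2.97%. Across 13648 probe sets, the difference between replicates 1 and 2 of the 48 h mock group had a Pearson correlation of 0.80 with the same difference in the INA 48 h group, 0.41 with that in the npr1-3 DCA group, 0.36 with that in the npr1-3 mock group and 0.03 with that in the DCA 48 h group. Replicate 1 also stood apart in the DCA 6 d group, where it differed from replicate 2 by more than 2-fold in 15.6% of probe sets, and in the INA 6 d group, with 16.4%. Leaving out replicate 1 of the 48 h mock group moved some values by over 1.5 times. For most list medians and gene changes of this kind, the value without it is printed beside it. Most counts of members are given with all arrays only. Among marker genes of single tissues, RCA (Rubisco activase, for mesophyll) had signals of 29688, 31854 and 33172 at 6 d, against 24989, 23643 and 23328 at 48 h. The root marker PYK10, a beta-glucosidase, was also detected, at 2678 to 3440.3 at 6 d and 4399.8 to 5144 at 48 h. No tested marker of root (1 of 5 annotated), guard cell (2 of 4), xylem and fibre (2 of 2), phloem (1 of 1), floral organs (1 of 5) or mesophyll (1 of 1) was called, and RCA was the 1 of them with an unadjusted p under 0.05. Neither trichome nor shoot meristem markers passed the filter on low signal.

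A probe set is called here where limma's adjusted p is under 0.05. Between 6 d and 48 h mock plants 29 of 13648 tested probe sets were called, which is 0.212%. Of these, 25 were higher at 6 d (0.183%) and 4 were lower (0.0293%), and 28 had changed by at least 2-fold. In whole shoots a lower signal can come from fewer cells of a type or from less RNA per cell, which cannot be told apart. An unadjusted p under 0.05 was reached by 1325 probe sets in the higher direction (9.71%) and by 756 in the lower direction (5.54%). The 3 arrays at 6 d lay above all 3 arrays at 48 h for 18.2% of the probe sets and below them for 9.77%. The median log2 change over all tested probe sets was 0.07. The number of calls rests on single arrays: it was 0 without replicate 1 or without replicate 2 of the 6 d mock group, 0 without replicate 3 of the 48 h mock group and 4 without replicate 1 of that group, whereas the fit to the 6 mock arrays alone called 401 (2.94%) and the fit to the 18 Col-0 arrays 240 (1.76%). In each of the 3 fits that called 0, at least 1429 probe sets had an unadjusted p under 0.05. The annotation gives 1 gene for 12 of the 29 called probe sets and no entry for the other 17. Without replicate 1 of the 48 h mock group, AT2G38240 was the 1 gene of these 12 that was still called. The other 11 kept their direction, with adjusted p-values from 0.0519 in Fes1A to 0.156 in AT1G01830.

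Of the 12 named called genes, 4 encode chaperones or their partners. All 4 rose at 6 d, as did 11 of the 12. The 4 were grouped from among the called genes, and AT2G29500 alone belongs to the list of heat shock proteins. The share of such genes among all tested probe sets was not counted. AT2G29500, a class I small heat shock protein, had signals of 367, 441 and 249.8 in 6 d mock plants, against 40.6, 93.4 and 41.9 in 48 h mock plants. Its log2 change was 2.66 ± 0.47 (SE), a 6.34-fold rise with an adjusted p of 0.0171 in limma. The groups did not overlap, and the highest 48 h value was that of replicate 2. Fes1A, a nucleotide exchange factor that works with cytosolic HSP70, reached 546, 585 and 457 at 6 d, against 213.788, 214.992 and 200.001 at 48 h. The replicates of Fes1A were close in both groups, and its log2 change was 1.33 ± 0.22 (adjusted p = 0.0171). AT1G66080 encodes a relative of Hikeshi, a protein that carries HSP70 into the nucleus in human cells. It had 226, 219 and 197 at 6 d, against 60.4, 93.7 and 66.9 at 48 h, a log2 change of 1.56 ± 0.30 (adjusted p = 0.0290). SGT1A, the HSP90 co-chaperone, had 1643, 1480.1 and 1294 at 6 d, against 479, 549 and 586 at 48 h. That is a 2.73-fold rise (log2 1.45 ± 0.27, adjusted p = 0.0260), with no overlap between the groups.

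Of the list of heat shock proteins, 7 members were tested and AT2G29500 was the 1 called. All 7 had a positive change, against 57.9% of all probe sets, with a median log2 of 0.59 against 0.07 over all probe sets, and in 4 of them all 6 d arrays lay above all 48 h arrays, against 18.2% of all probe sets. AT3G09440, a cytosolic HSP70, and AT1G54050, a small heat shock protein, were picked out after their values were seen. AT3G09440 had signals of 2763, 2885 and 4631 at 6 d, against 746, 1764 and 1185 at 48 h (log2 1.52 ± 0.51, adjusted p = 0.179). AT1G54050 had 852, 882 and 852 at 6 d, against 237, 420.2 and 399 at 48 h (log2 1.34 ± 0.49, adjusted p = 0.211). Neither passed the test although their arrays did not overlap. The smallest change in the list was 0.17, in HSA32, a protein of long-term heat tolerance. Of 3 tested genes of folding in the endoplasmic reticulum none was called or reached an unadjusted p under 0.05, and their median log2 was 0.52, and 0.29 without replicate 1 of the 48 h mock group. CRT1b, a calreticulin, had 1678, 1726 and 1975 at 6 d, against 899.7, 1617 and 1321 at 48 h.

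**Figure D1:**
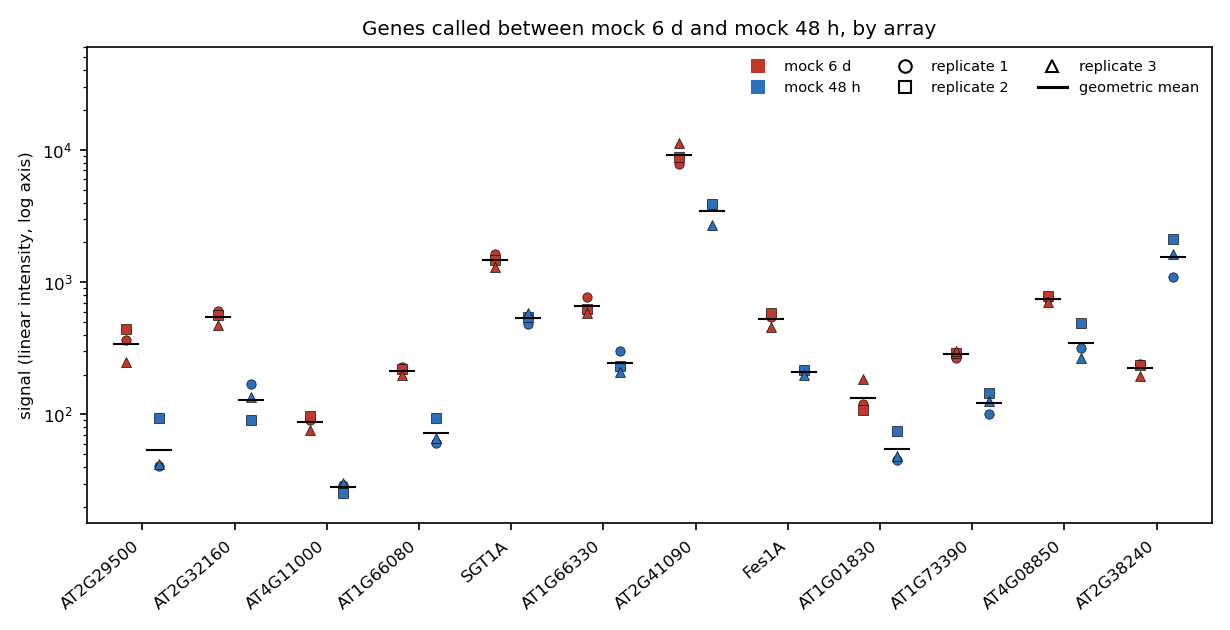
Signal on each array (log axis) for the 12 called genes that the annotation names, with mock 6 d to the left of mock 48 h, marker shapes for the replicates and a bar at the geometric mean. In all 12 genes the 3 arrays of one time lie wholly above the 3 of the other: 11 are higher at 6 d and AT2G38240 is lower.

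Immune receptor genes were mostly higher at 6 d, yet none of the NLR list was called. The list holds NLR genes and their relatives with a TIR domain, and 33 of its 93 annotated members were tested. In 31 of the 33 the change was positive, and the median log2 was 0.60, against 0.07 over all probe sets. All 6 d arrays lay above all 48 h arrays in 16 of 33, against 18.2% of all probe sets, and below them in 0. In limma 0 of 33 were called and 15 had an unadjusted p under 0.05, all of them higher at 6 d. Without replicate 1 of the 48 h mock group the median was 0.56 and 19 members did not overlap, against 23.6% of all probe sets. Quantile normalization gave a median of 0.47. Several members lie in tandem clusters of close relatives, so that their probe sets may share transcripts.

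Named by the rule of strongest probe-set signal, which does not rank transcript levels between genes, were AT4G19530, a TIR-NLR gene, and AT3G04210, which encodes a TIR domain with a nucleotide-binding domain. AT4G19530 had signals of 1842, 1913 and 1475 at 6 d, against 953, 1244 and 1127 at 48 h (log2 0.65 ± 0.32, adjusted p = 0.345). For AT3G04210 they were 1793, 1909 and 1597 at 6 d, against 145, 959 and 489.6 at 48 h (log2 2.11 ± 0.76, adjusted p = 0.205). Both genes were without overlap, but AT3G04210 spread widely at 48 h, with the lowest value in replicate 1. Its log2 change was 1.36 without that array. The largest change in the list belonged to AT5G58120, a TIR-NLR gene picked out after its values were seen, with 334, 343 and 304 at 6 d, against 22.3, 55.9 and 36.6 at 48 h (log2 3.19 ± 0.78, adjusted p = 0.0772). AT1G72940, a TIR gene picked out in the same way, came nearest to the threshold, with 1448, 1569 and 1266 at 6 d, against 584, 672 and 485 at 48 h (log2 1.31 ± 0.28, adjusted p = 0.0561). The fit to the 6 mock arrays alone called 4 of the 33, and so did the fit to the 18 Col-0 arrays.

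**Figure D2:**
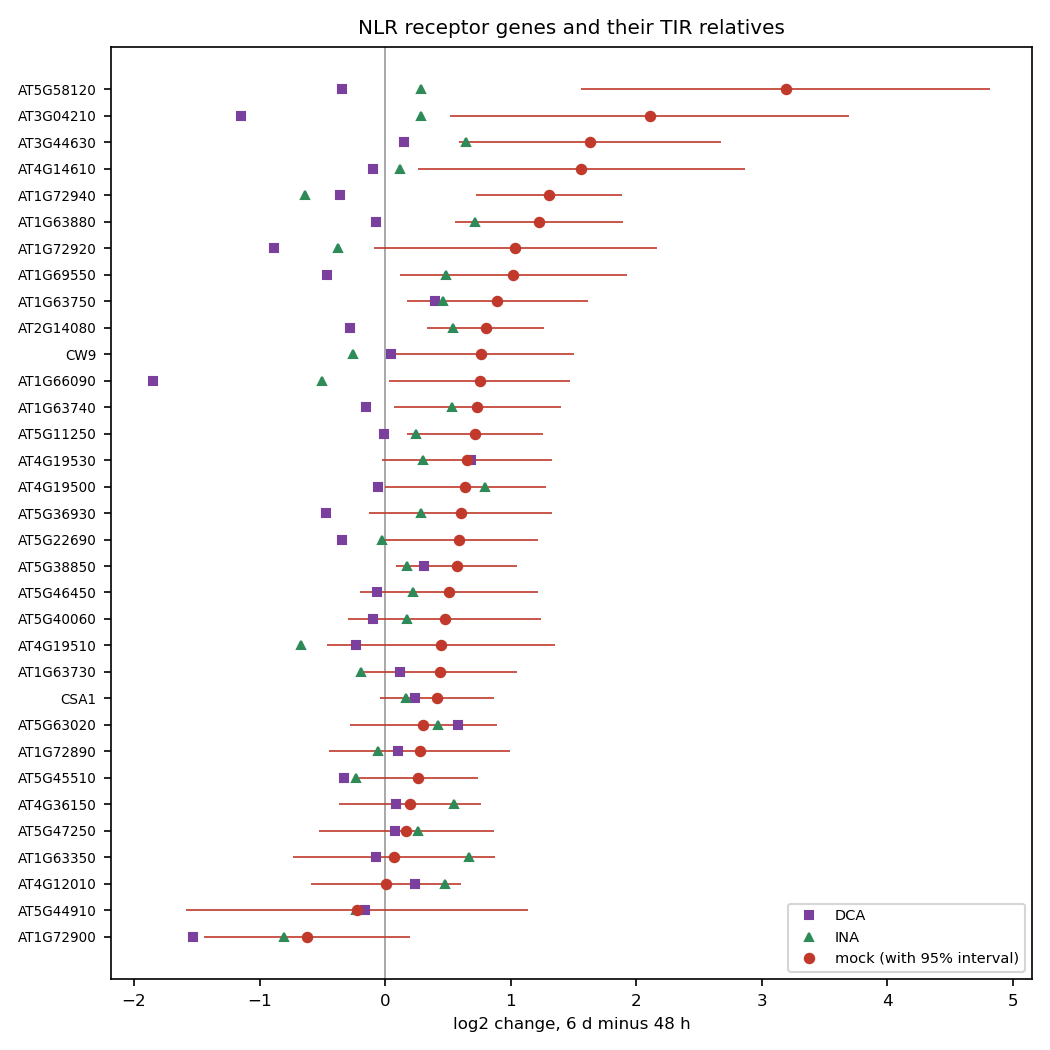
The log2 change from 48 h to 6 d (x axis) of the 33 tested NLR receptor genes and TIR relatives, in DCA plants (squares), INA plants (triangles) and mock plants (circles with 95% intervals). In mock plants 31 of the 33 circles lie above 0, while the squares of DCA plants lie on both sides of 0.

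Outside the NLR list, 3 called genes were placed under immune perception and signalling. They were grouped from among the called genes, and the share of such genes among all tested probe sets was not counted. AT4G08850 encodes MIK2, a leucine-rich repeat receptor kinase of the cell surface that perceives SCOOP peptides. It had signals of 759, 786 and 714 at 6 d, against 316, 495 and 265 at 48 h, a log2 change of 1.12 ± 0.22 (adjusted p = 0.0351). CaBP22 (AT2G41090), a calmodulin-like protein of the SA response list, had 7768, 8788 and 11340.4 at 6 d, against 3804, 3890.2 and 2713 at 48 h. It rose 2.68-fold (log2 1.42 ± 0.30, adjusted p = 0.0467), and it was called in none of the fits that left out 1 mock array. AT4G11000, an ankyrin-repeat gene of low signal, had 91.5, 96.5 and 75.9 at 6 d, against 29.2, 25.5 and 30.1 at 48 h (log2 1.63 ± 0.27, adjusted p = 0.0171). The groups overlapped in none of these 3 genes.

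Few other SA genes could be named. Of the 4 tested members of the SA list, CaBP22 was called (against 0.212% of all probe sets) and 3 had all 6 d arrays above all 48 h arrays (against 18.2%). AT5G52810, the reductase SARD4 of pipecolate synthesis, was picked out after its values were seen and had 314, 201 and 332 at 6 d, against 148, 144 and 128 at 48 h (log2 0.98 ± 0.42, adjusted p = 0.271). GRX480, a glutaredoxin induced by SA, had a log2 change of -0.01, and of -0.24 without replicate 1 of the 48 h mock group. Among the 6 tested WRKY factors none was called, 2 had an unadjusted p under 0.05, and the median log2 was 0.15. That median was 0.44 without replicate 1 of the 48 h mock group and 0.08 after quantile normalization. WRKY53, a regulator of leaf senescence, had 149, 174 and 217 at 6 d, against 552, 70.5 and 139 at 48 h. Its 48 h values lay on both sides of all its 6 d values, with replicate 1 at the top. Its log2 change was 0.02, and 0.84 without replicate 1.

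The 1 named gene that fell was AT2G38240, which encodes JOX4, an oxidase that inactivates jasmonic acid. Its signals were 239.8, 236 and 196 in 6 d mock plants, against 1090.4, 2126 and 1642 in 48 h mock plants. The log2 change was -2.81 ± 0.44 (adjusted p = 0.0171), which makes it 6.99-fold higher at 48 h. Every 48 h array lay above every 6 d array. Without replicate 1 of the 48 h mock group its log2 change was -3.07 and it was still called (adjusted p = 0.0421). The jasmonate list did not move with it: none of its 5 tested members was called, 1 had an unadjusted p under 0.05, and the median log2 was 0.28, and 0.51 without replicate 1 of the 48 h mock group. The strongest signals of the list belonged to AT3G28220, which encodes a protein with a MATH domain, and THI2.2, a thionin. AT3G28220 had 5437, 5300.2 and 4371 at 6 d, against 1809, 1880.0 and 2375 at 48 h (log2 1.32 ± 0.30, adjusted p = 0.0656). THI2.2 had 6798, 6730.2 and 5481 at 6 d, against 3981, 5698 and 4824 at 48 h, and its groups overlapped.

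A further 4 genes were called, each higher at 6 d. AT2G32160, annotated in Arabidopsis as a methyltransferase, had 604, 561 and 472 at 6 d, against 169.6, 91.0 and 135 at 48 h, a 4.25-fold rise (log2 2.09 ± 0.42, adjusted p = 0.0360). AT1G66330 had 777, 631 and 585 at 6 d, against 303, 231 and 208 at 48 h (log2 1.43 ± 0.28, adjusted p = 0.0313). AT1G73390, with a BRO1-like domain, had 266, 293 and 303 at 6 d, against 101.4, 145.9 and 125.5 at 48 h (log2 1.22 ± 0.22, adjusted p = 0.0171). The groups were apart in each of these 3 genes. Like CaBP22, AT2G32160 and AT1G66330 were called in none of the fits that left out 1 mock array. AT1G01830, with armadillo repeats, had 119, 108 and 184 at 6 d, against 45.5, 74.8 and 48.5 at 48 h (log2 1.28 ± 0.25, adjusted p = 0.0351). It too was without overlap, with replicate 3 the highest at 6 d and replicate 2 the highest at 48 h.

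The 17 called probe sets without an entry are unnamed here. The largest rise of all was in one of them, 256245_at, with signals of 992, 1100.2 and 703 at 6 d, against 46.4, 145 and 74.0 at 48 h. It rose 11.5-fold (log2 3.53 ± 0.60, adjusted p = 0.0171). Another, 266142_at, had 689, 697 and 526 at 6 d, against 108, 73.1 and 149 at 48 h (log2 2.58 ± 0.42, adjusted p = 0.0171). Among the falls, 261745_at had 153, 149 and 261 at 6 d, against 768, 1235 and 935 at 48 h (log2 -2.41 ± 0.47, adjusted p = 0.0319). For 253660_at the signals were 167, 148 and 108 at 6 d, against 408, 382 and 369 at 48 h (log2 -1.48 ± 0.28, adjusted p = 0.0260). All 29 called probe sets had groups without overlap, as did 28.0% of all probe sets in either direction. The 29 were chosen by their difference between these same arrays, so their lack of overlap is no separate evidence.

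Of the 10 tested photosynthesis genes of the nucleus none was called and 4 had an unadjusted p under 0.05. All 10 had a positive change, against 57.9% of all probe sets, and 8 had all 6 d arrays above all 48 h arrays, against 18.2%. After quantile normalization the change of LHCB4.1 was negative (log2 -0.04). Their median log2 was 0.35, and 0.16 after quantile normalization. LHCB4.1, an antenna protein of photosystem II with the strongest signal of the list, had 35003, 39729 and 39330.5 at 6 d, against 32066, 32456 and 30305 at 48 h (log2 0.26). LHCB4.3, a distinct member of the same family picked out after its values were seen, had 1418, 1326 and 1148 at 6 d, against 482, 535 and 271 at 48 h (log2 1.65 ± 0.45, adjusted p = 0.0933). For transcripts of the plastid genome the median changes stood near the 0.07 of all probe sets. In 44 plastid photosynthesis genes the median log2 was 0.09 (0.14 without replicate 1 of the 48 h mock group). Without overlap, 3 members lay above, against 18.2% of all probe sets, and 0 below, against 9.77%. An unadjusted p under 0.05 was reached by 0, against 9.71% of all probe sets in the higher and 5.54% in the lower direction. Without that array 8 members lay above without overlap, against 23.6% of all probe sets. For the 18 plastid genes of transcription and translation it was 0.15, with 0 called. The 117 cytosolic ribosomal protein genes had a median of 0.12, 0 called, 5 at an unadjusted p under 0.05 and 34 with all 6 d arrays above all 48 h arrays, against 18.2% of all probe sets.

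**Figure D3:**
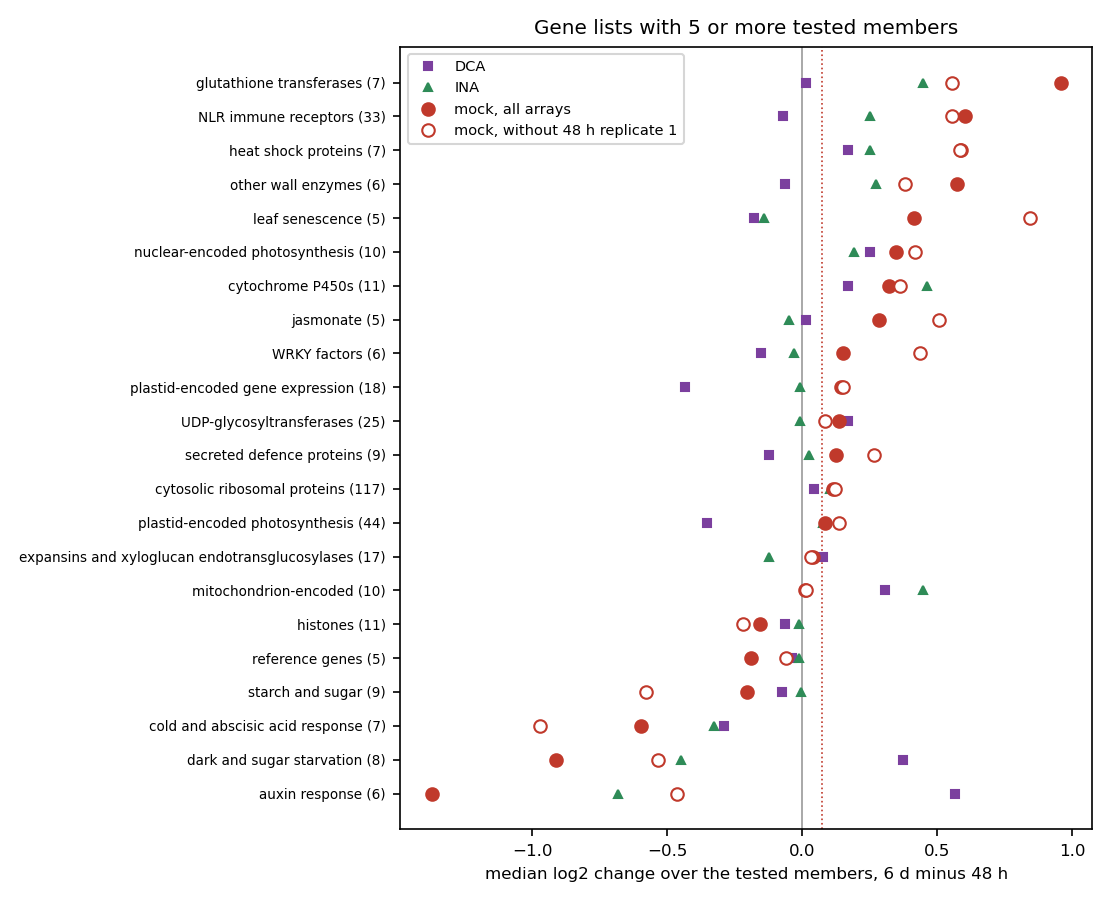
Median log2 change from 48 h to 6 d (x axis) for each gene list with 5 or more tested members (number in parentheses), in DCA plants, INA plants and mock plants, the last also without replicate 1 of the 48 h mock group (open circles). The dotted line marks the median of all probe sets in mock plants, 0.07. Glutathione transferases (0.96), NLR genes (0.60), heat shock proteins (0.59) and wall enzymes (0.57) have the highest mock medians, and auxin response genes the lowest (-1.37). Without replicate 1 of the 48 h mock group leaf senescence (0.84) is highest and cold and abscisic acid response (-0.97) lowest.

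A clock gene, cold response genes and a defensin relative had lower signals at 6 d without passing the test. GI (GIGANTEA), an evening gene of the circadian clock, had 528, 478 and 593 at 6 d, against 1016, 1342 and 947 at 48 h (log2 -1.04 ± 0.47, adjusted p = 0.300). The other tested member of the clock list was AT4G16146, for which no clock function is given here. It had 359, 389 and 914 at 6 d, against 1809.8, 2031 and 1582 at 48 h (log2 -1.84 ± 0.65, adjusted p = 0.200). In both genes all 6 d arrays lay below all 48 h arrays, against 9.77% of all probe sets. Both also had an unadjusted p under 0.05, against 5.54% in the lower direction. In the cold and abscisic acid list all 7 tested members had a negative change, against 42.1% of all probe sets, with a median log2 of -0.60 and of -0.97 without replicate 1 of the 48 h mock group. None was called, and 1 had an unadjusted p under 0.05. All 6 d arrays lay below all 48 h arrays in 1 of the 7, against 9.77% of all probe sets, and below replicates 2 and 3 alone in 4, against 13.4%. COR47, a dehydrin, had 3933, 3919 and 5589 at 6 d, against 9159, 8713 and 8491 at 48 h (log2 -0.99 ± 0.50, adjusted p = 0.348). AT4G30650, a small hydrophobic protein of the low-temperature family, had 1211, 1312 and 5526 at 6 d, against 5402, 10415 and 7226 at 48 h, where replicate 3 at 6 d lay within the range of the 48 h arrays. LCR69, a small cysteine-rich protein of the defensin family, had 5304, 4934 and 8058 at 6 d, against 17464, 17661 and 16208 at 48 h (log2 -1.52 ± 0.48, adjusted p = 0.147). Among the 9 tested secreted defence proteins it had the largest change and the 1 unadjusted p under 0.05, and the list as a whole had a median of 0.12, and 0.27 without replicate 1 of the 48 h mock group.

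Dark-response, auxin and gibberellin receptor genes differed in how far the 48 h replicates spread. MCCA, a subunit of the carboxylase that breaks down leucine, had 558, 535 and 538 at 6 d, against 5229, 796 and 3317 at 48 h (log2 -2.14 ± 0.996, adjusted p = 0.311). IVD, a mitochondrial dehydrogenase of the same pathway, had 184, 191 and 231 at 6 d, against 2621, 187 and 966 at 48 h (log2 -1.95, and -1.08 without replicate 1). The 6 d arrays were close together in both genes, while replicate 1 was highest and replicate 2 lowest at 48 h, near the 6 d level. In the dark and sugar starvation list 7 of 8 tested members had a negative change, with a median of -0.91 and of -0.53 without replicate 1 of the 48 h mock group. None was called and 1 had an unadjusted p under 0.05. AKINBETA1, a subunit of the SnRK1 kinase that senses low energy, had 2558, 2463 and 1781 at 6 d, against 8786, 2079 and 5839.5 at 48 h (log2 -1.08, and -0.64 without replicate 1). MCCB, the other subunit of MCCA's enzyme, had 486, 416 and 572 at 6 d, against 2499, 587 and 1452 at 48 h (log2 -1.40, and -0.92 without replicate 1), and did not overlap. The electron carriers of amino acid breakdown had smaller values, with log2 changes of -0.44 in ETFBETA and -0.74 in ETFQO, and of -0.16 and -0.43 without replicate 1 of the 48 h mock group. AT3G15450, the strongest signal of the list, had 20081, 21644 and 19442 at 6 d, against 28209, 21198 and 23412 at 48 h (log2 -0.24, and -0.13 without replicate 1), and D2HGDH, a mitochondrial dehydrogenase, had the 1 positive change (log2 0.22).

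The auxin-conjugating enzymes showed the same order of replicates. WES1, a GH3 enzyme, had 433, 495 and 323 at 6 d, against 3965, 219 and 1459 at 48 h (log2 -1.40, adjusted p = 0.522, and log2 -0.46 without replicate 1 of the 48 h mock group). GH3.3, its relative, picked out after its values were seen, had 159, 141 and 147 at 6 d, against 2479.7, 193 and 919 at 48 h (log2 -2.35 ± 1.05, adjusted p = 0.289, and log2 -1.50 without that array). Only the second of these was without overlap. In the auxin list 5 of 6 tested members had a negative change, 0 were called, 2 had an unadjusted p under 0.05, and the median was -1.37, and -0.46 without replicate 1 of the 48 h mock group. For the gibberellin receptor GID1A the signals were 410.5, 322 and 453 at 6 d, against 1030.2, 472 and 744 at 48 h (log2 -0.87 ± 0.44, adjusted p = 0.350). Replicate 1 of the 48 h mock group was the highest 48 h array in WES1, GH3.3 and GID1A, and what sets it apart was not tested.

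**Figure D4:**
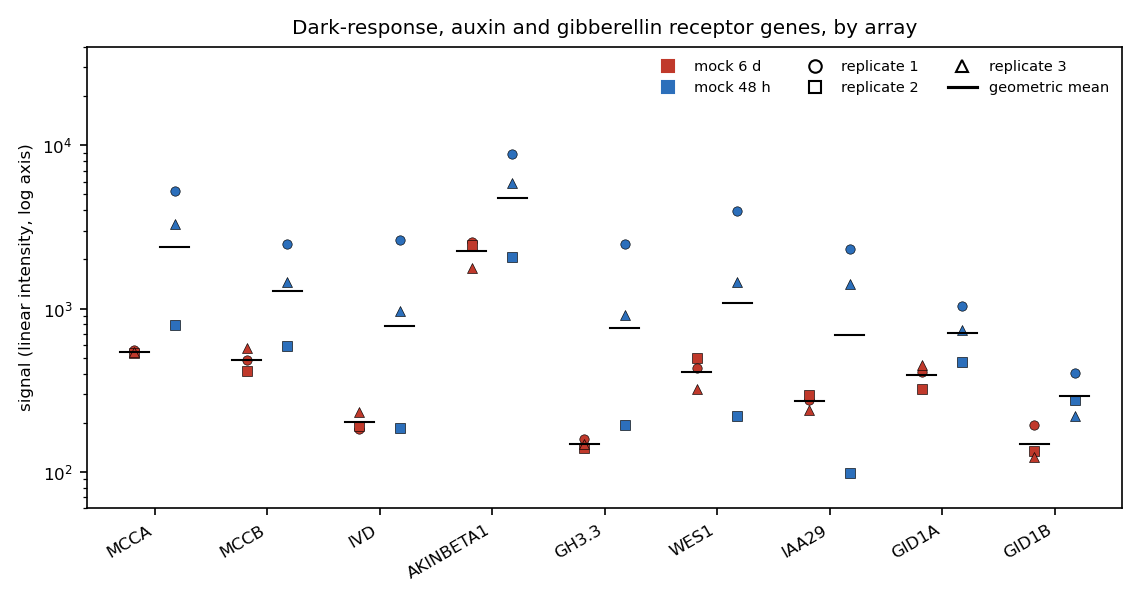
Signal on each array (log axis) for 9 dark-response, auxin and gibberellin receptor genes, with mock 6 d to the left of mock 48 h and marker shapes for the replicates. At 48 h replicate 1 is the highest array in all 9 genes and replicate 2 the lowest in 8 of them, whereas the 6 d arrays lie close together.

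No gene of detoxification, pigment synthesis or the cell wall was called. All 7 tested glutathione transferases had a positive change, against 57.9% of all probe sets. In 6 of them all 6 d arrays lay above all 48 h arrays, against 18.2%, 3 had an unadjusted p under 0.05 in the higher direction, against 9.71%, and the median log2 was 0.96. The median was 0.56 without replicate 1 of the 48 h mock group, where GSTU20 was low: its signals were 7341, 7336 and 6715 at 6 d, against 1381, 5526 and 4253 at 48 h (log2 1.16 ± 0.63, adjusted p = 0.388), and without that array the change was 0.56. Of 5 annotated genes of flavonoid synthesis 2 were tested. Both had all 6 d arrays above all 48 h arrays, against 18.2% of all probe sets. DFR, the reductase that leads to anthocyanins, had 258, 339 and 199 at 6 d, against 28.1, 162 and 61.6 at 48 h (log2 1.99 ± 0.51, adjusted p = 0.0831). UGT78D2, which attaches glucose to flavonols and anthocyanidins, had 437, 371 and 449 at 6 d, against 141, 171 and 158 at 48 h (log2 1.42 ± 0.47, adjusted p = 0.169). Expansins and xyloglucan endotransglucosylases loosen walls of growing cells. Their 17 tested members were split, 9 positive and 8 negative, with a median of 0.04 and 4 at an unadjusted p under 0.05. Of the other wall enzymes 5 of 6 were positive, 2 had an unadjusted p under 0.05, and the median of 0.57 was 0.38 without replicate 1 of the 48 h mock group. PMEPCRF, a pectin methylesterase, had 1452, 1328 and 978 at 6 d, against 359, 810.3 and 638 at 48 h (log2 1.11 ± 0.47, adjusted p = 0.265).

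Flowering and senescence genes were not called. AGL24, a MADS-box factor that promotes flowering, had 242, 194 and 184 at 6 d, against 100.4, 83.5 and 84.8 at 48 h (log2 1.20 ± 0.32, adjusted p = 0.0913). SMZ, an AP2-type repressor of flowering, had 105, 61.4 and 97.6 at 6 d, against 71.8, 147 and 119 at 48 h (log2 -0.34 ± 0.39, and -0.63 without replicate 1 of the 48 h mock group). The groups were apart for AGL24 and overlapped for SMZ. Of 5 tested senescence genes 4 had a positive change, with a median of 0.42, 0 called and 1 at an unadjusted p under 0.05. Without replicate 1 of the 48 h mock group the median was 0.84, and members with all 6 d arrays above the 48 h arrays were 4 of 5, against 23.6% of all probe sets, where all arrays gave 2 of 5, against 18.2%. The cytokinin response regulator ARR15 had 476, 453 and 274 at 6 d, against 256, 159.6 and 119 at 48 h (log2 1.20 ± 0.44, adjusted p = 0.211). The 5 tested reference genes had a median of -0.19 (-0.06 without replicate 1 of the 48 h mock group), from -0.56 in PEX4 to 0.52 in GAPC2, a glycolytic enzyme.

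The same contrast of times was next taken from DCA plants and INA plants, which share no array with the mock plants. In DCA plants 129 probe sets were called between 6 d and 48 h (0.945%), 64 of them higher (0.469%) and 65 lower (0.476%). Leaving out replicate 1 of the DCA 6 d group gave 247 calls, and leaving out any other of the 6 DCA arrays gave 8 to 25. In INA plants 0 were called in limma (0.0%), and 740 had an unadjusted p under 0.05. Across the 13648 probe sets, the log2 change with time had a Pearson correlation of 0.15 between DCA and mock plants and of 0.58 between INA and mock plants. These correlations are descriptions across probe sets that are not independent of each other. The 48 h mock group also shared its difference between replicates 1 and 2 with the INA 48 h group (correlation 0.80). For the DCA 48 h group that correlation was 0.03. How far this shared difference sets the 0.58 apart from the 0.15 was not tested. The 25 probe sets called higher in mock plants had a median log2 change of 0.36 in DCA plants and 0.42 in INA plants, against 1.45 in the mock plants that chose them. In DCA plants 18 of the 25 had a positive change and 3 were called, 2 of them higher and 1 lower. In INA plants 19 had a positive change and 0 were called. The named gene among the 3 was AT1G66330, with a log2 change of 1.20 (adjusted p = 0.0427) in DCA plants and 0.995 in INA plants. Its call in mock plants was lost in every fit that left out 1 mock array. All 4 probe sets called lower in mock plants had negative changes in both treatments, and 3 of them were called in DCA plants.

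AT2G38240 (JOX4) had a negative change in all 3 treatments. In DCA plants its signals were 444.5, 191.5 and 177.0 at 6 d, against 1788, 1869 and 1233 at 48 h, a log2 change of -2.70 ± 0.44 (adjusted p = 0.00857). In INA plants they were 309, 140.0 and 219 at 6 d, against 1063, 1477 and 1288 at 48 h, with -2.58 ± 0.44 (adjusted p = 0.0803). The difference between the change in DCA plants and that in mock plants was 0.11, with a 95% interval from -1.19 to 1.41.

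The change with time in DCA plants differed from that in mock plants for 3 probe sets (0.022%), each of them lower in DCA plants. That count was 1 without replicate 1 or without replicate 2 of the 6 d mock group, and 39 without replicate 2 of the 48 h mock group. For INA plants 0 were called in limma (0.0%), and 346 had an unadjusted p under 0.05. The 1 named gene of the 3 was AT4G11000, whose signals in DCA plants were 132, 101.5 and 120.0 at 6 d, against 239, 217 and 208 at 48 h. Its log2 change of -0.92 in DCA plants, against 1.63 in mock plants, gave a difference of -2.55 ± 0.38 (adjusted p = 0.0114). For the chaperone genes the difference was not called. SGT1A had a log2 change of 0.18 in DCA plants, against 1.45 in mock plants (adjusted p of the difference = 0.271). Fes1A had 0.15 in DCA plants, against 1.33 in mock plants (adjusted p of the difference = 0.210). AT2G29500 had 0.59, against 2.66 in mock plants (adjusted p of the difference = 0.297). AT1G66080 had -0.37, against 1.56 in mock plants (adjusted p of the difference = 0.110). In INA plants the log2 changes were -0.05 for SGT1A, -0.04 for Fes1A, -0.83 for AT2G29500 and 0.42 for AT1G66080. The NLR list had medians of -0.07 in DCA plants and 0.25 in INA plants, against 0.60 in mock plants. None of its 33 members was called in the difference between DCA and mock, and 1, AT1G66090, a TIR gene, was called between the times in DCA plants (log2 -1.85, adjusted p = 0.0157).

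**Figure D5:**
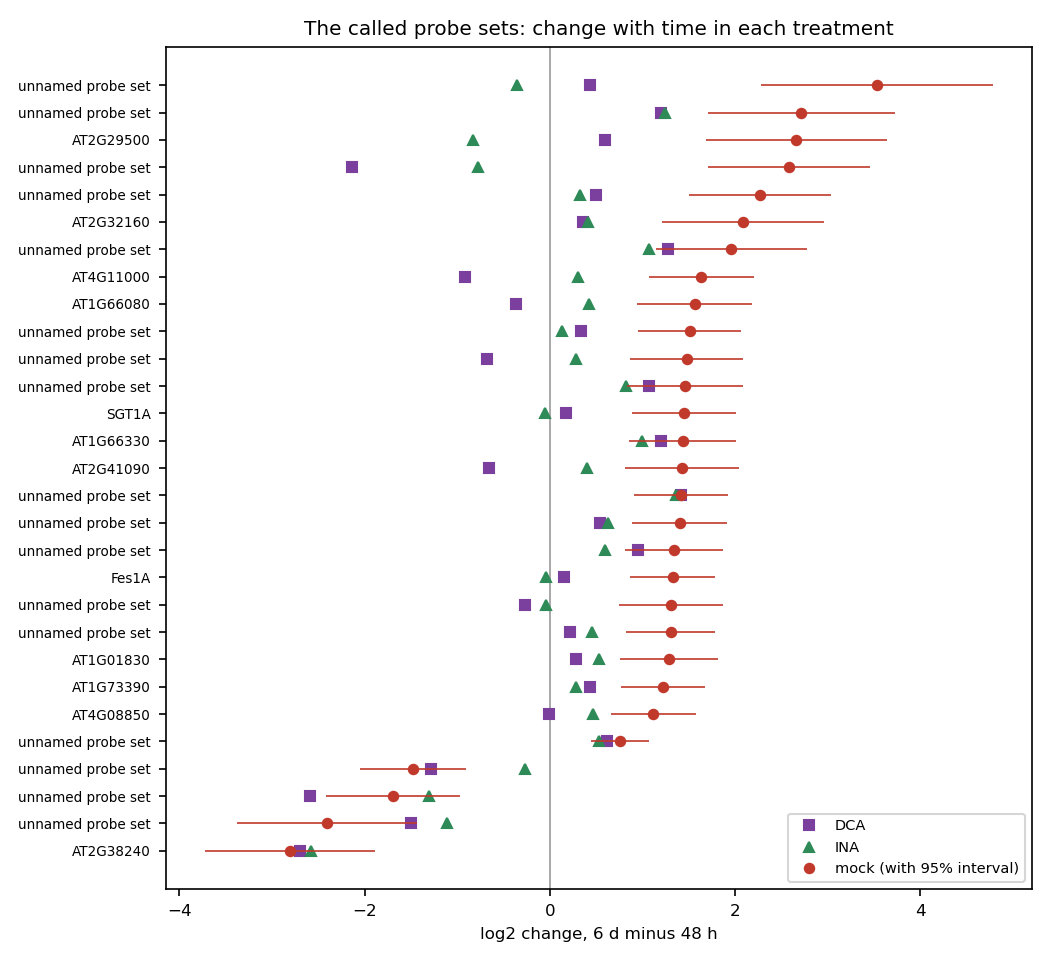
The log2 change from 48 h to 6 d (x axis) of the 29 probe sets called in mock plants, in DCA plants (squares), INA plants (triangles) and mock plants (circles with 95% intervals); those without an annotation entry are unnamed. The 4 lowest rows are negative in all 3 treatments, while of the 25 rises 18 are positive in DCA plants and 19 in INA plants.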

How the data were processed

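The authors deposited 1 signal intensity per probe set and array, and GCOS is the software that the submitters' processing notes name, without a version. The table holds 22810 probe sets on 24 arrays, and all arrays had been scaled to the same trimmed mean. For the log2 scale, a floor of 1 was applied to the signal intensities. The 64 control probe sets were left out, and a probe set was tested where its mean log2 signal over all 24 arrays was at or above the 40th percentile (a signal of 74.2), which left 13648. limma 3.58.1 (R 4.3.3) was fitted to all 24 arrays with 1 mean per group (lmFit and eBayes with an intensity trend, 16 residual degrees of freedom), with Benjamini-Hochberg adjustment over all tested probe sets. Precision is limited by the number of arrays, with 95% intervals in mock plants that reached a median of 0.59 to either side on the log2 scale. The change with time in DCA or INA plants was set against that in mock plants by interaction terms. The fit was tested on simulated data for the mock comparison with 13648 probe sets: 42 of 100 probe sets changed by a log2 of 1 and 91 of 100 changed by 2 were found, with 9 false calls. The simulated arrays had independent noise, with the same spread in every group for a given probe set. The real groups spread unequally: replicates 1 and 2 differed by more than 2-fold in 19.0% of tested probe sets at 48 h and in 1.41% at 6 d. The simulated counts therefore do not give the recovery or false calls in the real arrays.

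The platform annotation gave 1 gene for 7334 of the tested probe sets, several for 272 and no entry for 6042. Names were checked against RefSeq genes of TAIR10.1. The text names up to 12 rises and 12 falls, the largest among called probe sets with 1 gene, no overlap between the mock groups and a signal above the median, then up to 5 called members of each list, or those among the 2 with the strongest signal where none was called, and every tested clock, dark-response or flowering gene. Others are said to have been picked after their values were seen. The arrays, the 41 gene lists (37 with a tested member) and the 9 marker lists were chosen with earlier results of these data known, and the lists were completed from the annotation. Peptide deformylases (matched as defensins), an aquaporin interactor and PMEAMT (matched as a pectin methylesterase) were taken out of the lists after their values had been seen. The labels call the replicates biological. They do not say whether a replicate number marks a shared sowing. Same-numbered mock arrays deviated together with correlations of 0.03, 0.016 and 0.149, so the main fit has no block. Those correlations cover the 2 mock groups only. Between the 48 h mock group and other 48 h groups, differences between replicates 1 and 2 correlated at up to 0.80. The main fit leaves such sharing in its estimate of the spread, and a replicate block gave 741 calls in place of 29. The alternatives were other sets of arrays, a replicate block, quantile normalization, no filter, a floor of 32, no intensity trend, array weights and each mock array left out. Chosen after seeing the data were the fit to replicates 2 and 3, the mock arrays with a block and a replicate score from other groups as covariate. Probe sequences were not used here. Figures were drawn with matplotlib 3.10.9.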

Additional observations from a re-analysis of the deposited data

Results flagged for a closer look

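In 3 probe sets the change with time in DCA plants differed from that in mock plants by the interaction term in limma. The difference was -4.72 on the log2 scale for 266142_at (SE 0.59, adjusted p = 0.00146), which had signals of 397, 94.4 and 79.5 in DCA plants at 6 d and 623, 637 and 635 at 48 h, against 689, 697 and 526 at 6 d and 108, 73.1 and 149 at 48 h in mock plants. In INA plants its change with time was -0.78. For 245329_at the difference was -2.81 (SE 0.48, adjusted p = 0.0456), with 1838, 1539.6 and 1159.5 in DCA plants at 6 d and 4111, 4425 and 4523 at 48 h, against 1174, 1217 and 1081 at 6 d and 438, 631 and 404 at 48 h in mock plants. Neither probe set has an entry in the annotation.

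AT4G11000, the ankyrin-repeat gene described above, had a difference of -2.55 (SE 0.38, adjusted p = 0.0114). Its 95% interval ran from -3.35 to -1.75. In INA plants its signals were 178, 315 and 302 at 6 d, against 161, 242 and 228 at 48 h.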

How the results depend on the processing

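The number of probe sets called between 6 d and 48 h mock plants depended strongly on the fit, against 29 as reported. It was 401 in the fit to the 6 mock arrays alone (22 of the 29 among them), 240 in the fit to the 18 Col-0 arrays (all 29), 187 with array weights (27), 15 after quantile normalization (every one of them in the 29) and 351 when replicate 1 was dropped from all groups (25). Of the alternatives added after seeing the data, replicates 2 and 3 of the mock groups alone gave 244 (17 of the 29 among them). The mock arrays with a replicate block gave 143 (15), and the replicate score as covariate 3 (1). With the score all 29 kept their direction, but only 256245_at, which has no annotated gene, was still called. AT2G38240 then had an adjusted p of 0.0501 in limma. Leaving out 1 mock array gave 0 to 41 calls; none of the 29 was called in all 6 of these fits, and 5 in none of them. No filter gave 22, a floor of 32 gave 33 and no intensity trend gave 26. The replicate numbers were not shown to pair the 6 d with the 48 h mock arrays. Among the 48 h groups, differences between replicates 1 and 2 were partly shared. Their correlation with mock plants was 0.80 for INA, 0.41 for npr1-3 DCA, 0.36 for npr1-3 mock and 0.03 for DCA. With the replicate block 741 probe sets were called in mock plants (all 29 among them), 380 in DCA plants and 2 in INA plants. For the difference from mock plants it called 66 with DCA and 1 with INA. With the replicate score these counts were 660 in DCA plants and 1 for the difference between INA and mock. Leaving out 1 DCA array gave 8 to 247 calls in DCA plants, leaving out 1 INA array 0 to 1 in INA plants, and leaving out 1 mock array 1 to 39 for the difference between DCA and mock. The cause of these shifts was not tested. For the 93 named genes, 1472 values under the alternatives kept direction and side of the threshold, 99 lost the call, 35 gained it and 68, of 27 genes, turned direction. None of the 68 belonged to a called gene or passed the threshold. With the replicate score the turned log2 changes were 0.021 for psaJ, -0.23 for rpl33, -0.044 for psbM, -0.78 for APS3, -0.36 for SWEET17, 0.85 for PPDK, 0.24 for AT5G64120, 0.16 for ETFBETA, 0.20 for BRH1, -0.13 for PME61, -0.14 for EXLA1, 0.37 for WES1, -0.038 for AT4G18425, -0.21 for AT4G13840, 0.42 for EIN3, 0.032 for AT3G15450, 0.42 for ETFQO, -0.51 for AT1G75900, -0.24 for EXGT-A3, -0.23 for UGT74B1, -0.24 for RR16 and 0.19 for AT2G30620. Replicates 2 and 3 alone, and likewise replicate 1 dropped from all groups, gave 0.083 for psaJ, -0.65 for APS3, -0.0061 for SWEET17, 0.16 for PPDK, 0.17 for BRH1, -0.52 for EXLA1, 0.013 for EIN3, -0.16 for AT1G75900, -0.19 for EXGT-A3 and -0.037 for UGT74B1. Array weights gave -0.027 for WRKY53, -0.030 for AT4G13840 and 0.0019 for ARPN, and quantile normalization -0.021 for rpl33, -0.11 for psbM, -0.0024 for AT5G20290, -0.041 for LHCB4.1 and -0.058 for WRKY53. Over the fits that left out 1 mock array, the changes ran from -0.35 to 0.0041 for nad4, -0.10 to 0.12 for psaJ, -0.65 to 0.76 for APS3, -1.20 to 0.27 for PPDK, -0.57 to 0.16 for BRH1, -0.032 to 0.60 for PME61, -0.51 to 0.57 for EXLA1, -0.64 to 0.84 for WRKY53, -0.093 to 0.075 for AT4G13840, -0.21 to 1.15 for AT1G75900, -0.11 to 0.20 for EXGT-A3, -0.086 to 0.88 for UGT74B1 and -0.30 to 0.26 for ARPN.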

Other observations

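Families of specialised metabolism and nutrient supply held no called gene. Of 25 tested UDP-glycosyltransferases, which attach sugars to hormones and metabolites, 9 had all 6 d arrays above and 3 had all 6 d arrays below all 48 h arrays, against 18.2% and 9.77% of all probe sets. Their median log2 change was 0.14 (0.09 without replicate 1 of the 48 h mock group), and 10 had an unadjusted p under 0.05. UGT88A1, the strongest signal among them, had 3357, 3178 and 3764 at 6 d, against 1796, 1816 and 1915 at 48 h (log2 0.89 ± 0.32, adjusted p = 0.202). UGT72E1, which acts on lignin precursors, had 575, 463 and 461 at 6 d, against 3067, 527 and 1238 at 48 h, where replicate 1 was the highest (log2 -1.34, and -0.70 without it). In 11 tested cytochrome P450 genes the median was 0.32, with 5 above (against 18.2%) and 1 below (against 9.77%) without overlap and 3 at an unadjusted p under 0.05. All 3 tested glucosinolate genes had positive changes, and BCAT4, an aminotransferase of methionine chain elongation, had 5765, 5479 and 6011 at 6 d, against 1996, 5577 and 3722 at 48 h (log2 0.73, and 0.34 without replicate 1 of the 48 h mock group). Both tested genes of the sulfur supply list were positive. AT1G04770, a gene that responds to sulfur shortage, had 272, 279 and 433 at 6 d, against 72.2, 129.6 and 97.7 at 48 h (log2 1.72 ± 0.50, adjusted p = 0.130), without overlap.

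Sugar transport, metal supply and chromatin held no called gene either. Among 9 tested genes of starch and sugar the median was -0.21, and -0.58 without replicate 1 of the 48 h mock group. SWEET11, a sucrose exporter of the phloem, had 1769.7, 1678 and 2969 at 6 d, against 2969, 3163 and 2999 at 48 h. CCS, the copper chaperone of superoxide dismutase, had 255, 155 and 152 at 6 d, against 767, 252 and 374 at 48 h (log2 -1.20 ± 0.54, adjusted p = 0.294, and log2 -0.76 without replicate 1 of the 48 h mock group), and its groups overlapped. The 11 tested histone genes had a median of -0.15 and the 10 mitochondrial genes one of 0.01. Of 2 tested genes of the nitrate list, AT1G25550 had 1288, 1471 and 1177 at 6 d, against 759.7, 943 and 1001 at 48 h (log2 0.55). Lists of cuticle lipids (2 tested), peroxidases (1), ethylene (1) and the cell cycle (1) had log2 changes between -0.52 and 0.80. For the peroxidase the change was -0.52, and -0.16 without replicate 1 of the 48 h mock group. Without that array the ethylene gene went from -0.29 to -0.02 and the cell cycle gene from 0.14 to 0.08.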
